A study of Mus musculus with 18 samples.

Results

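Activated CD8 T cells were compared with activated CD4 T cells of the same wild-type genotype, gene by gene. The comparison takes 6 of the 18 libraries of a study of mouse spleen T cells, namely the 3 libraries labelled CD8+ and the 3 labelled CD4+ of the strain Foxp3 YFP/cre, here called WT. Both groups therefore carry the YFP/cre allele of Foxp3, whose product is the master regulator of regulatory T cells (Treg). Libraries of the strain Foxp3 YFP/cre Ebi3 -/- are here called KO after their label; Ebi3 encodes a chain of IL-27 and of IL-35. The 6 libraries of CD8 and CD4 cells labelled KO were used for the same contrast in separate libraries. Ebi3 counts were still present in them, at 51, 47 and 71 in CD8 KO against 58, 55 and 60 in CD8 WT (28.1, 24.7 and 34.6 against 29.8, 28.5 and 30.3 CPM), where the values overlap. In CD4 cells they were 47, 50 and 48 in KO against 83, 80 and 70 in WT (21.4, 26.9 and 23.2 against 61.9, 40.2 and 40.4 CPM), all lower in KO but not near 0. The values in CD8 cells do not set the labelled genotypes apart. Which part of the gene the allele removes was not given in the sources used here, so it is not known whether its 3' counts can check the label. All cells were stained, sorted by flow cytometry and then stimulated in culture for 72 h. The stimulus was anti-CD3 coated on the plate and anti-CD28, each at 2 µg/ml, and IL-2 was added at 10 ng/ml. From the labels it is not known how old the mice were or of which sex, whether Treg were gated out of the CD4 cells, or whether each replicate came from its own animal or culture. The p-values therefore measure the spread between these libraries, which may be technical.

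CD4 and CD8 T cells arise from a common thymic precursor and recognise peptides on MHC class II and class I. The choice of lineage is tied to the transcription factors ThPOK, encoded by Zbtb7b, and Runx3. CD8 cells are known as the killers of infected and transformed cells, through perforin and granzymes, whereas CD4 helper cells instruct B cells, macrophages and other T cells through CD40 ligand and secreted cytokines. Anti-CD3 and anti-CD28 stand in for antigen and costimulation, and IL-2 is the growth factor that sustains both cell types in culture.

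Each library was made from the 3' ends of polyadenylated RNA, and the files hold counts per gene. Total counts were 1959720, 1921382 and 1968300 in the CD8 libraries and 1358671, 1991812 and 1754800 in the CD4 libraries. A count of 3 in 1 library is then 1.51 to 2.21 CPM (counts normalised to the scaled library size), and intervals and floors given here cover counting error only. Along the first principal component of the 6 libraries, which held 48.9% of the variance, the CD8 libraries lay between 7.88 and 31.2 and the CD4 libraries between -40.3 and -8.51. Transcripts of other cells were present in every library. The 19 B cell and MHC class II genes listed summed to 6671, 8006 and 11108 CPM in the CD8 libraries and 15778, 8969 and 10937 CPM in the CD4 libraries, and hemoglobin genes to 640.4 to 1064 and 880.0 to 1533 CPM. All 19 B cell genes were lower in CD8 with a median log2 fold change of -0.46, and 0 of them passed the test (4 did without CD8 replicate 3). CD4 replicate 1 had the lowest depth and the highest sums of both kinds, and CD8 replicate 3 the highest sums among the CD8 libraries. T cell receptor and CD3 genes summed to 1216 to 1767 CPM in CD8 and 899 to 1372 CPM in CD4 libraries. Myeloid and dendritic cell markers were low (5 of 18 tested, 0 called), and on the list of NK and innate-like T cell markers 5 of 15 were tested and 1, Eomes, was called, as higher in CD8. Of its 8 members counted below the filter, 7 had 0 to 4 counts over the 6 libraries, among them Ncr1 (2) and Klrb1c (4). The other was the gamma delta T cell gene Trdc, with 19, 9 and 8 counts in CD8 and 1, 1 and 2 in CD4 libraries, and Trgv2, a gamma chain gene outside the list picked after its value was seen, had 37 against 3 counts. The part of such cells in the results was not tested. Foxp3 had 2 counts in all. In such bulk RNA, fewer cells of a type and less RNA per cell cannot be told apart.

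**Figure D1:**
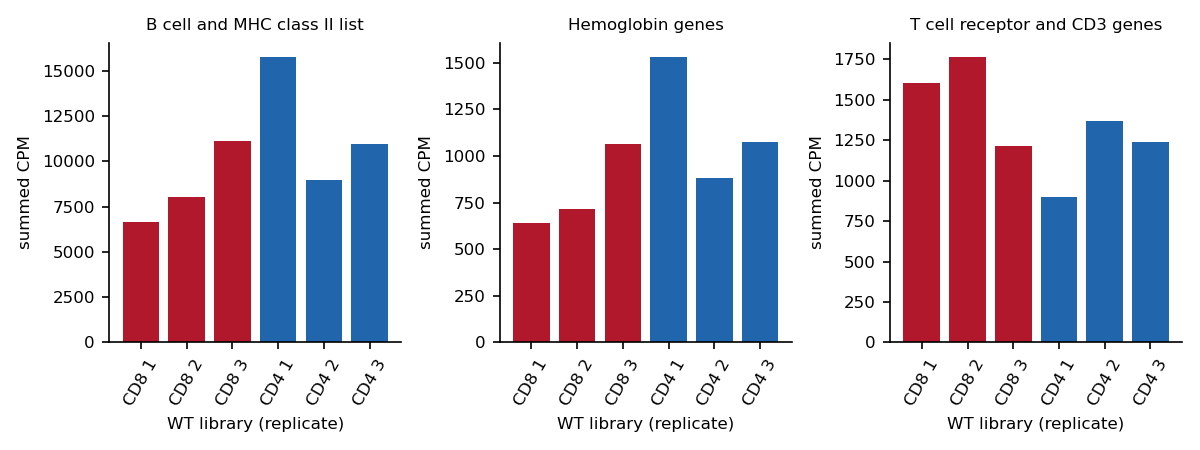
Summed CPM (vertical axis, from 0) of the B cell and MHC class II list, of the hemoglobin genes and of the T cell receptor and CD3 genes in each of the 6 WT libraries (bars, CD8 red, CD4 blue). CD4 replicate 1 has the highest bar for B cell and hemoglobin genes and the lowest for T cell receptor genes.

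Of 11276 genes tested, 254 were higher in CD8 than in CD4 cells (2.25% of the genes tested) and 134 were lower (1.19%), or 3.44% in either direction, at an adjusted p under 0.05 in edgeR's quasi-likelihood test with Benjamini-Hochberg adjustment. The largest differences belonged to the coreceptors and to genes of killing, NK-type receptors, chemokines and cytokines on the CD8 side, and to CD40 ligand and a group of metabolic, signalling and surface genes on the CD4 side. Differences over 2-fold were found for 133 of the higher and 62 of the lower genes, and differences over 4-fold for 62 and 23. In 251 of the 254 higher genes all 3 CD8 libraries lay above all 3 CD4 libraries, an order that 11.2% of all tested genes had. In 130 of the 134 lower genes all CD8 libraries lay below, against 8.92% of all tested genes. The median log2 fold change over all genes tested was -0.03. With log2 hemoglobin CPM as a covariate the split turned, with 159 higher and 188 lower genes, so that 45.8% of the calls were higher in place of 65.5%. Without CD4 replicate 1, the library with the most hemoglobin and B cell transcripts, the counts were 203 and 173. They were 146 and 77 without CD8 replicate 1, 130 and 53 without CD8 replicate 2, 443 and 294 without CD8 replicate 3, and 151 and 62 without CD4 replicate 3.

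**Figure D2:**
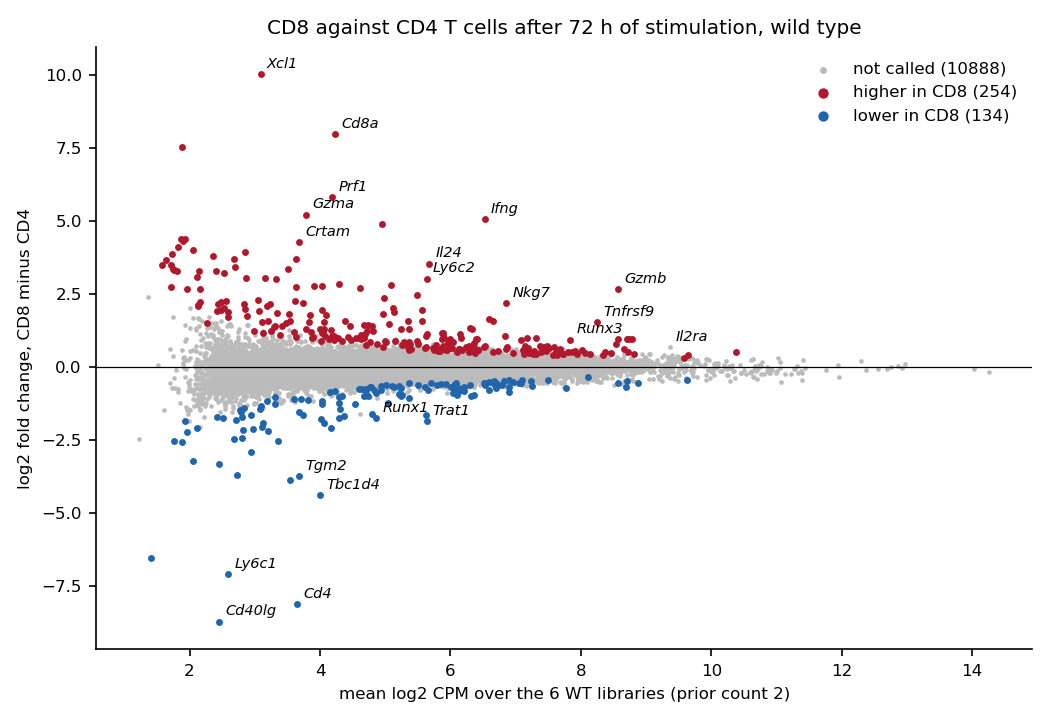
Log2 fold change, CD8 minus CD4 (vertical axis), against the mean log2 CPM over the 6 WT libraries (horizontal axis, prior count 2), 1 point per tested gene. Red points (254) passed the test as higher in CD8 and blue points (134) as lower; Xcl1 and Cd8a lie at the top and Cd40lg and Cd4 at the bottom.

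The coreceptors separated the 2 groups as labelled. Cd8a (ENSMUSG00000053977, chromosome 6, 71373427 to 71379173 on GRCm38), the CD8 alpha chain, had 251, 223 and 171 CPM in the CD8 libraries and 0, 0.502 and 1.73 CPM in the CD4 libraries. The groups were far apart, with every CD4 library at or under about the level of 3 counts (215 ± 40.2 against 0.745 ± 0.891 CPM, SD, n = 3; log2 fold change 7.97, SE 0.31, adjusted p = 8.27e-13 in edgeR). Cd8b1, the beta chain, was 171 ± 34.7 against 5.34 ± 3.34 CPM (log2 fold change 4.89, SE 0.28, adjusted p = 3.17e-09). Cd4 (ENSMUSG00000023274, chromosome 6, 124864692 to 124888221) had 106, 132 and 103 CPM in the CD4 libraries and 0, 0.518 and 0.505 CPM in the CD8 libraries, or 583 against 2 counts. Its ratio, CD4 over CD8, was 336.9 with a 95% counting interval of 92.9 to 2788.

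The lineage factors differed less than the coreceptors. Runx3 (ENSMUSG00000070691, chromosome 4, 135120652 to 135177990) had 354, 332 and 264 CPM in CD8 and 153, 181 and 163 CPM in CD4 libraries. All CD8 libraries were above all CD4 libraries, with log2 fold change 0.93, SE 0.13, adjusted p = 0.000142. Runx1, another member of the Runx family that binds the same DNA core, went the other way: 12.3, 16.1 and 17.7 CPM in CD8 and 42.5, 60.3 and 51.4 CPM in CD4 libraries, with no overlap (log2 fold change -1.75, SE 0.21, adjusted p = 1.91e-05). Runx2, the remaining family member, was 13 ± 3.9 against 5.7 ± 0.981 CPM and missed the threshold (log2 fold change 1.17, adjusted p = 0.0539); it passed without CD8 replicate 3 (adjusted p = 0.0306). Zbtb7b, which encodes ThPOK, was 37.6 ± 5.64 against 51.9 ± 7.48 CPM (log2 fold change -0.47, SE 0.17, adjusted p = 0.122) and did not pass in these libraries. Eomes, a T-box factor of cytotoxic and memory cells, had 75.1, 68.9 and 45.5 CPM in CD8 and 5.22, 14.6 and 8.09 CPM in CD4 libraries, again with no overlap (log2 fold change 2.68, SE 0.27, adjusted p = 2.53e-06). Its relative Tbx21, which encodes T-bet, overlapped between the groups at 46.2 ± 6.3 against 39.8 ± 10.6 CPM (log2 fold change 0.19, adjusted p = 0.697).

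Gene list counts here and below stand beside 2.25% higher and 1.19% lower over all genes tested. The lists were written with earlier results of these data known, so their counts describe the members and are not a test. Of 15 tested genes on a CD8 lineage list that also holds the killer receptors below, 11 were higher and 0 lower, with a median log2 fold change of 2.76. Of 15 tested CD4 lineage genes, 4 were lower in CD8 and 1 was higher, with a median of -0.45. With the hemoglobin covariate 8 were lower and 0 higher, and without CD4 replicate 3 the lower ones were 2. Cd40lg (ENSMUSG00000031132, chromosome X, 57212143 to 57224042), which encodes the ligand by which helper cells license B cells and dendritic cells, had 21.6, 30.6 and 30.6 CPM in the CD4 libraries and 0 in every CD8 library. With 143 counts against 0 it was at least 55.1-fold higher in CD4, against a floor of 3 counts over the group. The other lower members were Cd4, Cd5 (log2 fold change -0.63, adjusted p = 0.0283), a brake on T cell receptor signalling, and Cd200 (log2 fold change -0.78, adjusted p = 0.035), a surface glycoprotein. The call of Cd5 was lost without CD8 replicate 1 or 3 or CD4 replicate 2 or 3 (adjusted p = 0.0785 to 0.114), and that of Cd200 without CD8 replicate 2 or 3 or CD4 replicate 2 or 3 (adjusted p = 0.0598 to 0.186). The member that went against the list was Icos, a costimulatory receptor named for inducible expression on T cells, at 102 ± 3.43 against 66.2 ± 17.1 CPM (log2 fold change 0.61, adjusted p = 0.0407), and its call was lost without CD8 replicate 1 or 2 or CD4 replicate 1 (adjusted p = 0.119 to 0.129).

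Genes of the killing machinery were higher in CD8 for 9 of the 19 tested. Of 25 listed genes of cytotoxic granules and their release, 19 passed the filter and 0 were lower, with a median log2 fold change of 0.73 against -0.03 over all genes. With the hemoglobin covariate 8 were higher and the median was 0.34. The perforin and granzyme genes that carried this difference are shown first by the 250 bases upstream of their RefSeq start (build GRCm38.p6), together with Xcl1, the chemokine gene with the largest difference. Capitals mark TGTGGT, the core motif bound by the Runx family, or its complement ACCACA where the match is on the opposite strand; both strands were searched. Each sequence is written 5′ to 3′ in the direction of transcription.
Prf1 (GRCm38.p6, chr10:61297586-61297835, plus strand): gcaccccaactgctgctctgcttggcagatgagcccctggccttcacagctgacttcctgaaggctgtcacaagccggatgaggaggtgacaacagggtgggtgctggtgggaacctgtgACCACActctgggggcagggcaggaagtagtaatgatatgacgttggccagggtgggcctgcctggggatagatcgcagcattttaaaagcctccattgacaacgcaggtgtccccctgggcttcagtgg
Gzma (GRCm38.p6, chr13:113100982-113101231, minus strand): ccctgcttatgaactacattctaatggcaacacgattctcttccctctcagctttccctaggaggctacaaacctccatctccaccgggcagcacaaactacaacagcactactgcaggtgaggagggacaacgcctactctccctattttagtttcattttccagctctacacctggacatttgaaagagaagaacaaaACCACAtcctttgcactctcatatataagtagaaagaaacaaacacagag
Gzmb (GRCm38.p6, chr14:56262335-56262584, minus strand): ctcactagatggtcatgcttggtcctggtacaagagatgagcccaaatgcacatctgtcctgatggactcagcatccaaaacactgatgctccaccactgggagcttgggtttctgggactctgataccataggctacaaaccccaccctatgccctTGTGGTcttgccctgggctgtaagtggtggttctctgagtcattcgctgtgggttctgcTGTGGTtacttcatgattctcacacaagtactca
Gzmc (GRCm38.p6, chr14:56234658-56234907, minus strand): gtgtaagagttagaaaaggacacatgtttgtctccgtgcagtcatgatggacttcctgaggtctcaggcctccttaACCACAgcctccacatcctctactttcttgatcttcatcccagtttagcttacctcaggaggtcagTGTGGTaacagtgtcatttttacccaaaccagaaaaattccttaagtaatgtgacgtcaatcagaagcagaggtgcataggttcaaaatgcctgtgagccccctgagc
Xcl1 (GRCm38.p6, chr1:164935523-164935772, minus strand): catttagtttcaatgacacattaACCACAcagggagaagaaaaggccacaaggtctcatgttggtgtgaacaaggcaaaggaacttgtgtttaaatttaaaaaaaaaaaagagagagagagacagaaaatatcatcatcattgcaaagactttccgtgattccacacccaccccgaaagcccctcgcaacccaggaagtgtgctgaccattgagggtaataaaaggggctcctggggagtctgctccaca
All 5 windows held the motif, with 2 matches each in Gzmb and Gzmc. Of all 32851 RefSeq promoters in the table, 14% held it in a window of the same length. The 5 genes were chosen after their differences were seen, from a larger number looked up, so their share cannot be set against 14%. Of the other genes looked up in the same way, Ccl3, Klrk1, Klrc1 and Ly6c2 held a match and Ifng, Cd8a, Eomes, Tbc1d4 and Ly6c1 did not. Among those without a match, Cd8a, Ifng and Eomes had log2 fold changes of 7.97, 5.06 and 2.68, above the 2.66 of Gzmb. A promoter entry was found for 73.2% of the higher and 74.6% of the lower genes, below the 80% needed to compare shares between the sets, so no such comparison is given. A match describes the letters and says nothing about binding.

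Prf1 (ENSMUSG00000037202, chromosome 10, 61297833 to 61304680), which encodes perforin, the pore through which granzymes enter a target cell, had 128, 118 and 94.5 CPM in the CD8 libraries and 1.49, 2.51 and 1.73 CPM in the CD4 libraries. Every CD8 library exceeded every CD4 library by more than an order of magnitude (log2 fold change 5.80, SE 0.32, adjusted p = 4.98e-10). Gzma, a granzyme with trypsin-like activity, had 67.4, 68.9 and 69.2 CPM in CD8 and 2.24, 0.502 and 2.89 CPM in CD4 libraries (log2 fold change 5.21, SE 0.53, adjusted p = 3.45e-05). The CD8 libraries were close to one another, and the CD4 libraries were at or near the counting floor. Gzmb, the granzyme that cleaves caspases and the most abundant of the family here, had 1293, 728 and 1152 CPM in CD8 and 58.1, 208 and 226 CPM in CD4 libraries. The groups did not overlap, yet both expressed it: the CD4 libraries held 164 ± 92.4 CPM (log2 fold change 2.66, SE 0.37, adjusted p = 0.00162), and CD4 replicate 1 was the lowest. Gzmc, next to Gzmb on chromosome 14, had 46 counts in CD8 and 2 in CD4 libraries, a ratio of 19.9 with a 95% counting interval of 5.21 to 169.2. Gzmd, Gzme, Gzmf, Gzmg, Gzmk and Gzmm did not pass the filter on low counts.

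The other higher members act around the granule. Nkg7, a membrane protein of cytotoxic granules, was 250.2 ± 49.3 against 54.2 ± 13.4 CPM (log2 fold change 2.18, SE 0.19, adjusted p = 1.37e-06), and Ctsw, a cathepsin found in cytotoxic cells, was 39.4 ± 8.5 against 5.9 ± 2.37 CPM (log2 fold change 2.76, adjusted p = 7.32e-06). Serpinb9, the inhibitor that protects the killer cell from its own granzyme B, was 174 ± 7.29 against 55 ± 19.4 CPM (log2 fold change 1.63, adjusted p = 0.000109), and the related Serpinb6b beside it on chromosome 13 was 593 ± 141 against 304 ± 52.5 CPM (log2 fold change 0.96, adjusted p = 0.00309). Rab27a, which docks secretory granules, was 48.4 ± 6.55 against 28.9 ± 5.44 CPM (log2 fold change 0.73, adjusted p = 0.0229), and its call was lost without CD8 replicate 1 or 2 or CD4 replicate 1 or 2 (adjusted p = 0.0602 to 0.125). The granule membrane protein gene Lamp1 was not called (146 ± 15.8 against 137 ± 5.41 CPM; log2 fold change 0.10, adjusted p = 0.696). Fasl, the ligand of the other killing pathway, was not called either (17.4 ± 6.82 against 18.2 ± 10.5 CPM; log2 fold change -0.13, adjusted p = 0.89).

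Several receptors first described on natural killer (NK) cells were higher in CD8. Of 20 listed killer lectin and innate receptors, 10 were tested, and 6 of these were higher and 0 lower, with a median log2 fold change of 1.33. Members high only in CD8 can pass the filter on low counts through that group. With no filter all 20 were tested, 8 were higher and the median was 1.06. Klrd1 (CD94), Klrk1 (NKG2D) and Klrc1 (NKG2A) lie within 100 kb on chromosome 6. Klrd1, the partner chain of NKG2A, had 15.9, 10.9 and 16.2 CPM in CD8 and 0, 2.01 and 0.578 CPM in CD4 libraries. Klrk1, an activating receptor for stress ligands, had 46.3, 54.9 and 31.8 CPM in CD8 and 1.49, 6.53 and 1.16 CPM in CD4 libraries. Klrc1, an inhibitory receptor for a nonclassical MHC molecule, had 24.2, 19.2 and 12.1 CPM in CD8 and 2.24, 2.01 and 0 CPM in CD4 libraries. In all 3 genes the CD8 libraries lay above the CD4 libraries, by log2 fold changes of 3.78 (SE 0.63), 3.71 (SE 0.37) and 3.68 (SE 0.52), with adjusted p of 0.00129, 2.48e-06 and 0.000197. Crtam, an adhesion receptor of activated cytotoxic cells, was 50.7 ± 5.96 against 2.41 ± 1.46 CPM (log2 fold change 4.28, SE 0.31, adjusted p = 1.17e-08). Cd160 (32.9 ± 10.6 against 8.0 ± 4.37 CPM; log2 fold change 1.96, adjusted p = 0.00719) and Slamf7 (97.6 ± 6.59 against 60.5 ± 8.36 CPM; log2 fold change 0.69, adjusted p = 0.00265) complete the group. The NK cell adaptor gene Tyrobp was not called (log2 fold change -0.32, adjusted p = 0.616).

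**Figure D3:**
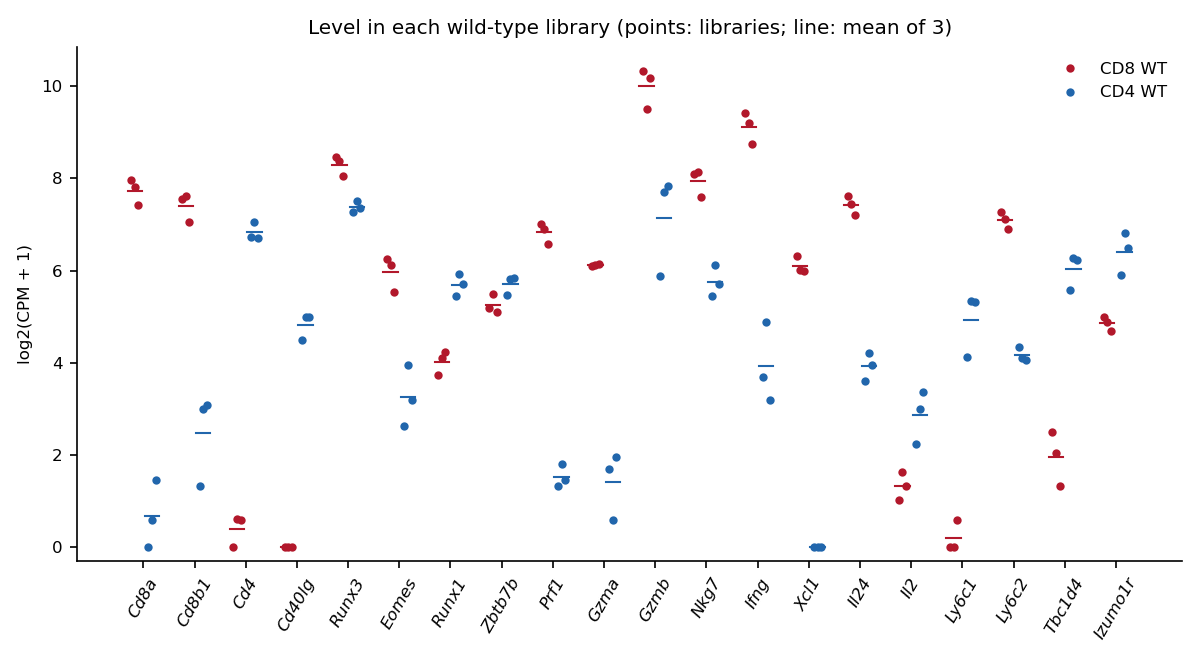
Level of 20 genes, as log2(CPM + 1) (vertical axis), in each WT library (points, CD8 red, CD4 blue) with the mean of 3 (line). Xcl1 is at 0 and Prf1 and Gzma are low in the CD4 libraries, whereas Gzmb is present in both groups at 1058 against 164 CPM; Ly6c1 and Ly6c2 go in opposite directions.

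Of 26 listed secreted cytokines 14 were tested, with 4 higher and 2 lower in CD8 and a median log2 fold change of 0.07. Ifng (ENSMUSG00000055170, chromosome 10, 118441046 to 118445892), the type 1 cytokine that arms macrophages, had 682, 588 and 430.2 CPM in the CD8 libraries and 11.9, 28.6 and 8.09 CPM in the CD4 libraries. The groups were widely apart (log2 fold change 5.06, SE 0.30, adjusted p = 1.17e-07). A predicted gene, Gm49751, overlaps the Ifng locus and was called in the same direction; without the strand setting of the counting their reads cannot be told apart. Il24, of the IL-10 cytokine family, had 194, 173 and 147 CPM in CD8 and 11.2, 17.6 and 14.4 CPM in CD4 libraries, also with no overlap (log2 fold change 3.54, SE 0.30, adjusted p = 7.72e-06). Il13, a type 2 cytokine, was higher in CD8 at 79.7 ± 5.8 against 41.2 ± 3.73 CPM (log2 fold change 0.94, adjusted p = 0.00417), whereas Il5, its usual companion in type 2 responses, was lower at 1.37 ± 0.31 against 5.04 ± 0.858 CPM (log2 fold change -1.86, adjusted p = 0.0283). The call of Il5 rested on few counts and was lost without CD8 replicate 1 or 2 or 3 or CD4 replicate 2 or 3 (adjusted p = 0.0632 to 0.091).

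Il2, the growth factor that activated helper cells secrete, had 1.03, 2.07 and 1.52 CPM in the CD8 libraries and 3.73, 7.03 and 9.24 CPM in the CD4 libraries. It was lower in all CD8 libraries (log2 fold change -2.11, SE 0.56, adjusted p = 0.0407), and the call was lost without CD8 replicate 1 or 2 or 3 or CD4 replicate 2 or 3 (adjusted p = 0.0577 to 0.18). Osm, which encodes oncostatin M, was 33 ± 1.27 against 16.2 ± 6.31 CPM (log2 fold change 0.97, adjusted p = 0.0216), with the call lost without CD8 replicate 1 or 2 or CD4 replicate 1 (adjusted p = 0.0516 to 0.0768). Lta, which encodes lymphotoxin alpha, was 110.3 ± 17.9 against 79.95 ± 23.1 CPM and not called (log2 fold change 0.44, adjusted p = 0.309). Il4, Il17a, Il21 and Il22 were among the 12 listed cytokines below the filter.

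Chemokines were few at this time point: 4 of 15 listed genes were tested, and 3 were higher in CD8. With no filter on low counts all 15 were tested, again with 3 higher, and the median log2 fold change was 0. Xcl1 (ENSMUSG00000026573, chromosome 1, 164931644 to 164935527), which attracts cross-presenting dendritic cells, had 78.2, 63.7 and 62.7 CPM in the CD8 libraries and 0 in every CD4 library. From 399 counts against 0 it was at least 115-fold higher in CD8. Ccl3, an inflammatory chemokine encoded on chromosome 11, had 22.1, 25.4 and 21.7 CPM in CD8 and 0.745, 3.52 and 3.47 CPM in CD4 libraries, and its neighbour Ccl4 had 39.1, 46.6 and 45 CPM in CD8 and 16.4, 15.6 and 17.3 CPM in CD4 libraries. Both genes were apart between the groups, at log2 fold change 3.04, adjusted p = 0.00261 for Ccl3 and log2 fold change 1.41, adjusted p = 0.00252 for Ccl4. The call of Ccl3 was lost with hemoglobin as a covariate (adjusted p = 0.0601). Ccl5 overlapped between the groups (16.3 ± 3.92 against 20.1 ± 1.96 CPM; log2 fold change -0.31, adjusted p = 0.517).

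Receptor chains for IL-18 and IL-12 were among the called genes. Il18r1, the IL-18 receptor chain, had 8.23, 12.9 and 14.7 CPM in CD8 and 1.49, 1.51 and 0.578 CPM in CD4 libraries (log2 fold change 3.26, SE 0.44, adjusted p = 0.000102). Il12rb2, the inducible IL-12 receptor chain, had 166, 116 and 111 CPM in CD8 and 31.3, 67.8 and 56 CPM in CD4 libraries (log2 fold change 1.30, SE 0.21, adjusted p = 0.00164), with no overlap. On the Th1 and type 1 list, 13 genes were tested, of which 5 were higher and 2 lower, with a median of 0.28. Ifngr2, a chain of the interferon gamma receptor, was among the lower ones (log2 fold change -1.10, adjusted p = 0.0418), and its call was lost without CD8 replicate 1 or 2 or CD4 replicate 2 or 3 (adjusted p = 0.0663 to 0.201).

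Among 24 tested cytokine receptors 4 were higher and 2 lower (25% called), with a median of -0.02. Il2rb, the IL-2 receptor beta chain, was 494 ± 74.2 against 284 ± 62.5 CPM (log2 fold change 0.79, adjusted p = 0.0015). Il2ra, the alpha chain that makes the receptor high-affinity, was 849 ± 130.3 against 529 ± 142 CPM and did not pass (log2 fold change 0.68, adjusted p = 0.0676), although it passed without CD8 replicate 3 or CD4 replicate 2 (adjusted p = 0.0225 and 0.0342). With no library left out, Il2ra passed in DESeq2 (adjusted p = 0.0096) and limma-voom (adjusted p = 0.03). It also passed in edgeR with no filter on low counts (adjusted p = 0.00078). Il7r, the receptor for the survival cytokine IL-7, was 227 ± 49.99 against 113 ± 21 CPM (log2 fold change 0.99, adjusted p = 0.0181), and the call was lost without CD8 replicate 1 or 2 or CD4 replicate 1 or 3 (adjusted p = 0.0654 to 0.11). Il6ra was lower (26.2 ± 9.74 against 53.3 ± 2.38 CPM; log2 fold change -1.02, adjusted p = 0.0169), with the call lost without CD8 replicate 1 or 2 or CD4 replicate 3 (adjusted p = 0.0755 to 0.115). The common gamma chain gene Il2rg was not called (log2 fold change -0.23, adjusted p = 0.269). Of 18 genes of IL-2 and STAT5 signalling and its feedback, 6 were higher and 0 lower, with a median of 0.22; 3 were higher without CD8 replicate 1 or 2. They include Prf1 and Gzmb, which are also on the cytotoxic list. Socs2, a feedback inhibitor, was 74 ± 19.5 against 33.5 ± 8.17 CPM (log2 fold change 1.11, adjusted p = 0.0248) and lost its call without CD8 replicate 1 or 2 or CD4 replicate 1 or 3 (adjusted p = 0.103 to 0.117), while Cish was not called (log2 fold change 0.12, adjusted p = 0.693).

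Most tested genes of the TNF superfamily were not called (7 of 9 ligands and 9 of 12 receptors), and the medians were -0.02 and 0.21. The called shares were 22.2% and 25%, against 3.44% of all tested genes. Of the ligands 2 were lower in CD8 and 0 higher: Cd40lg, above, and Tnfsf11, which encodes RANKL. Tnfsf11 had 5.66, 4.14 and 2.02 CPM in CD8 and 9.69, 21.6 and 21.9 CPM in CD4 libraries (log2 fold change -2.20, SE 0.46, adjusted p = 0.0102). The groups did not overlap, and the call was lost without CD8 replicate 2 or CD4 replicate 3 (adjusted p = 0.0559 to 0.0585). Of the receptors 3 were higher and 0 lower, or 2 and 1 with the hemoglobin covariate. Tnfrsf9, the costimulatory receptor 4-1BB, had 537, 608 and 431 CPM in CD8 and 143, 233 and 162 CPM in CD4 libraries, and Tnfrsf8, the activation marker CD30, had 29.3, 26.9 and 32.4 CPM in CD8 and 8.94, 6.53 and 10.4 CPM in CD4 libraries. The CD8 libraries lay above in Tnfrsf9 (log2 fold change 1.54, SE 0.20, adjusted p = 0.000407) and in Tnfrsf8 (log2 fold change 1.79, SE 0.24, adjusted p = 6.93e-05). The third, Tnfrsf1b, which encodes TNF receptor 2 and lies beside Tnfrsf8 on chromosome 4, was 50.1 ± 3.29 against 31.4 ± 2.46 CPM (log2 fold change 0.67, adjusted p = 0.0187), and its call was lost without CD8 replicate 1 or 2 or CD4 replicate 3 (adjusted p = 0.0755 to 0.101). Tnfrsf4, which encodes OX40, was not called (298 ± 59.2 against 336 ± 103 CPM; log2 fold change -0.18, adjusted p = 0.716).

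**Figure D4:**
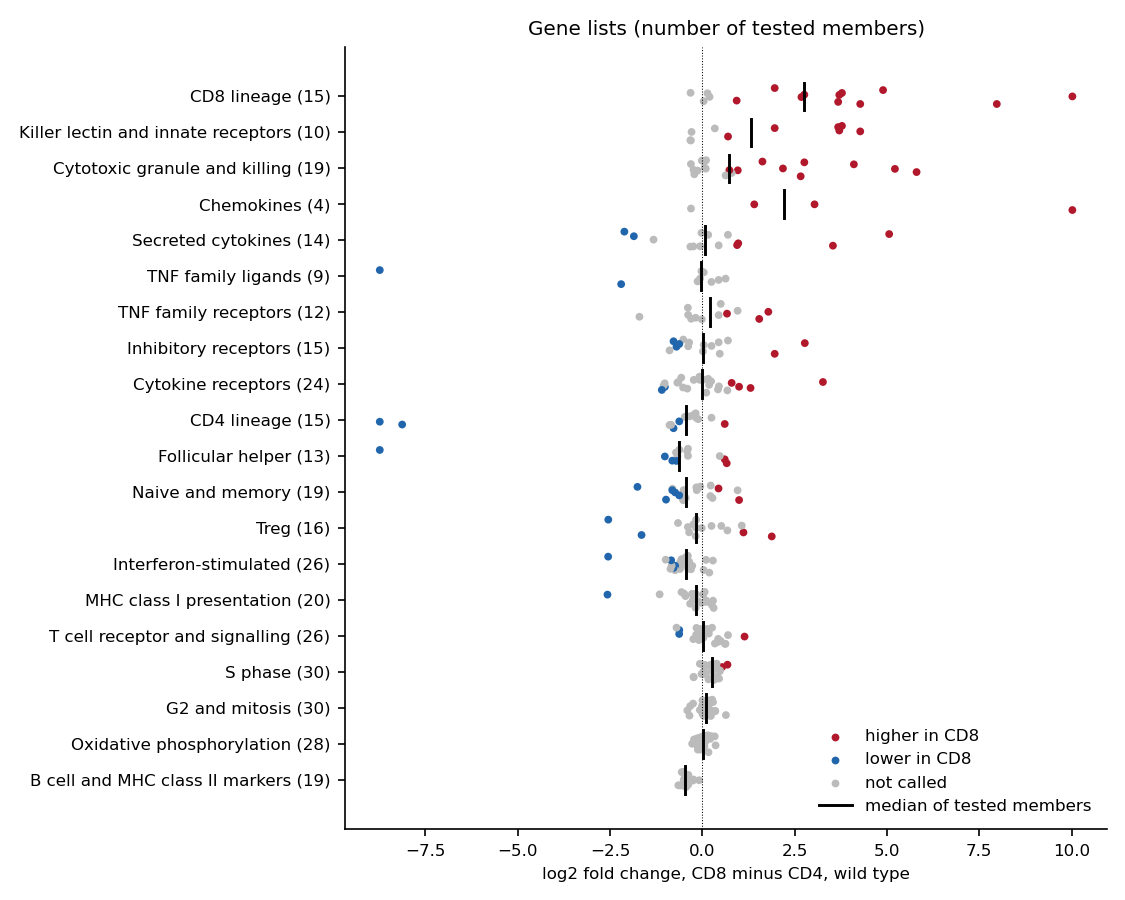
Log2 fold change, CD8 minus CD4 (horizontal axis), of the tested members of 20 gene lists, 1 point per gene, red where higher, blue where lower and grey where not called, with the median of each list as a black line. The medians of the CD8 lineage, killer receptor and chemokine lists lie at 2.76, 1.33 and 2.22, and those of S phase, mitosis and oxidative phosphorylation at 0.25, 0.10 and 0.00. They cover only members that passed the filter on low counts, which for chemokines were 4 of 15. With no filter the CD8 lineage, killer receptor and chemokine medians were 2.75, 1.06 and 0.

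The genes most reduced in CD8, apart from Cd4, Cd40lg and Ly6c1, were of varied function. Tbc1d4 (ENSMUSG00000033083, chromosome 14, 101442360 to 101609191), a Rab GTPase-activating protein known from insulin-regulated glucose transport, had 47, 75.8 and 73.9 CPM in the CD4 libraries and 4.63, 3.11 and 1.52 CPM in the CD8 libraries. Every CD4 library was far above every CD8 library (log2 fold change -4.40, SE 0.39, adjusted p = 2.55e-06). Dclk1, a microtubule-associated kinase, was 2.57 ± 1.04 against 38.2 ± 9.75 CPM (log2 fold change -3.89, adjusted p = 1.91e-05), Tgm2, a transglutaminase that crosslinks proteins, was 3.08 ± 1.36 against 41.2 ± 11.1 CPM (log2 fold change -3.74, adjusted p = 1.78e-05), and Fgf2, a fibroblast growth factor, was 1.36 ± 0.781 against 18.4 ± 6.79 CPM (log2 fold change -3.72, adjusted p = 4.02e-05). Stra6, a receptor for retinol-binding protein, was nearly the same in the 3 CD4 libraries, at 13.4, 13.6 and 13.3 CPM, and lower in the CD8 libraries, at 3.6, 1.55 and 2.02 CPM (log2 fold change -2.46, adjusted p = 0.000407). Igsf23 (log2 fold change -2.91, adjusted p = 0.000109), Rtkn2 (log2 fold change -3.24, adjusted p = 0.0028), the zinc finger gene Plagl1 (log2 fold change -2.18, adjusted p = 0.00168) and Lrig1, a negative regulator of growth factor receptors (log2 fold change -2.15, adjusted p = 0.00532), were lower as well, with means of 2.4 against 17.8 CPM, 0.854 against 8.46 CPM, 2.73 against 12.5 CPM and 3.43 against 14.9 CPM. None of these calls was lost when any 1 WT library was left out.

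Further genes of large difference on the CD8 side were receptors and intracellular proteins. Lilr4b and Lilrb4a, adjacent genes of inhibitory leukocyte immunoglobulin-like receptors on chromosome 10, were 22.2 ± 5.71 against 1.3 ± 0.645 CPM (log2 fold change 3.95, adjusted p = 1.78e-05) and 36.8 ± 12.9 against 5.23 ± 0.778 CPM (log2 fold change 2.77, adjusted p = 4.42e-05). The last 200 bases of their transcripts were 53.9% identical, with a longest shared run of 9 bases. Sytl3, a synaptotagmin-like protein that binds Rab27, was 17.4 ± 1.62 against 1.45 ± 1.36 CPM (log2 fold change 3.42, adjusted p = 3.36e-05), and Atp8b4, a phospholipid flippase, 33 ± 9.05 against 2.99 ± 1.33 CPM (log2 fold change 3.36, adjusted p = 1.37e-06). Cables1, a cyclin-dependent kinase adaptor, had 61 counts in CD8 and 3 in CD4 libraries, a ratio of 17.6 with a 95% counting interval of 5.74 to 87.7.

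The surface antigens Ly6c1 and Ly6c2, both detected by antibodies to Ly-6C, went in opposite directions. Ly6c2 (ENSMUSG00000022584, chromosome 15, 75108158 to 75111970) had 154, 139 and 118 CPM in the CD8 libraries and 19.4, 16.1 and 15.6 CPM in the CD4 libraries. Ly6c1 (ENSMUSG00000079018, chromosome 15, 75044018 to 75048830) had 0, 0 and 0.505 CPM in the CD8 libraries and 16.4, 39.7 and 38.7 CPM in the CD4 libraries. Neither gene overlapped between the groups: Ly6c2 was higher in CD8 (log2 fold change 3.02, SE 0.19, adjusted p = 1.30e-09), and Ly6c1 had 168 counts in CD4 against 1 in CD8, a ratio of 194.2 with a 95% counting interval of 34.4 to 7714. These genes are near copies, with 90.8% identity over the last 200 bases of their transcripts and a longest shared run of 48 bases, so reads could be assigned to the wrong copy. The 250 bases upstream of their starts, shown because the pair differs here, were 59.0% identical.
Ly6c1 (GRCm38.p6, chr15:75048838-75049087, minus strand): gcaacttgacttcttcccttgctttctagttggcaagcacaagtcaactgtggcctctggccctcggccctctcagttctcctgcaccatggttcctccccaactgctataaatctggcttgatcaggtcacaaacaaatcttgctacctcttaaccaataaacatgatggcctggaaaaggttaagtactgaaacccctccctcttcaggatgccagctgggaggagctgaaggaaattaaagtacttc
Ly6c2 (GRCm38.p6, chr15:75111972-75112221, minus strand): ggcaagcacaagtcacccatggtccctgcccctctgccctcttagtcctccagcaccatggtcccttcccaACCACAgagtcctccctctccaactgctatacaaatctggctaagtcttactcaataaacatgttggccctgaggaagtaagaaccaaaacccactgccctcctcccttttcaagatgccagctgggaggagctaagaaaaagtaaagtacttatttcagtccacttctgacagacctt
The motif TGTGGT was in the window of Ly6c2 and not in that of Ly6c1. The nearby Ly6a, which encodes Sca-1, was lower in CD8 at 327 ± 16.7 against 527 ± 16.9 CPM (log2 fold change -0.69, adjusted p = 0.000798). Of 20 tested integrin and adhesion genes, a list that holds these 3, 1 was higher and 2 were lower (15% called), with a median of -0.30. The lower ones were 5 with the hemoglobin covariate and 4 without CD8 replicate 3. Cd44, a marker of activated cells, was not called (log2 fold change -0.31, adjusted p = 0.197). It passed as lower without CD4 replicate 1 (adjusted p = 0.0457).

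Of 40 tested transcription factors of activated T cells 7 were higher and 3 lower (25% called), with a median of -0.09. The split was 6 higher and 10 lower with the hemoglobin covariate and 6 and 7 without CD4 replicate 1. Beside Eomes and Runx3, Batf3 had 75.6, 76.1 and 54.6 CPM in CD8 and 16.4, 20.1 and 13.9 CPM in CD4 libraries, with no overlap (log2 fold change 2.02, SE 0.26, adjusted p = 6.93e-05). Batf3 is an AP-1 family factor known from dendritic cells and activated T cells. Ikzf2, which encodes Helios, had 75.1, 74.6 and 50.04 CPM in CD8 and 13.4, 20.6 and 19.1 CPM in CD4 libraries (log2 fold change 1.88, SE 0.30, adjusted p = 0.00162), again apart. Nfil3 (87.5 ± 8.07 against 38.4 ± 10.2 CPM; log2 fold change 1.16, adjusted p = 0.000626) and Zbtb32 (229 ± 23.4 against 139 ± 9.17 CPM; log2 fold change 0.73, adjusted p = 0.000238) were higher too. Batf was 60.7 ± 2.21 against 38.2 ± 5.25 CPM (log2 fold change 0.66, adjusted p = 0.0199), and its call was lost without CD8 replicate 1 or 2 or CD4 replicate 1 or 2 (adjusted p = 0.0548 to 0.0831). The lower factors were Runx1, Id3, an inhibitor of E proteins (53.1 ± 8.61 against 88.8 ± 5.12 CPM; log2 fold change -0.74, adjusted p = 0.00298), and Irf4, the factor whose level follows the strength of T cell receptor signals (122 ± 8.28 against 190.1 ± 27.5 CPM; log2 fold change -0.65, adjusted p = 0.0029). Tcf7 (log2 fold change -0.81, adjusted p = 0.152) and Myc (log2 fold change -0.47, adjusted p = 0.419) were not called. Tcf7 passed as lower without CD4 replicate 1 (log2 fold change -1.085, adjusted p = 0.00282).

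Lists of follicular helper and of naive and memory genes had medians below that over all genes. Of 13 tested follicular helper genes 4 were lower and 2 higher, with a median of -0.62. The lower ones were Cd40lg, Il6ra, Slamf6 (log2 fold change -0.81, adjusted p = 0.00782) and Btla (log2 fold change -0.70, adjusted p = 0.0149); the calls of Slamf6 and Btla were lost without CD8 replicate 1 (adjusted p = 0.0551) and without CD8 replicate 1 or 2 (adjusted p = 0.0816 to 0.0945). Without CD8 replicate 1 or 2 the lower calls were 1 and 2, with 0 higher, and with the hemoglobin covariate 4 were lower and 0 higher, with a median of -0.32. Of 19 naive and memory genes 5 were lower and 2 higher, with a median of -0.45. With the covariate 9 were lower and the median was -0.08. Lower calls were 3 without CD8 replicate 1 or CD4 replicate 2 or 3 and 8 without CD4 replicate 1. Igfbp4, a binding protein of insulin-like growth factors, had 9.26, 12.4 and 9.1 CPM in CD8 and 21.6, 39.2 and 41.6 CPM in CD4 libraries (log2 fold change -1.76, SE 0.30, adjusted p = 0.00166), without overlap. Its neighbour Ccr7, the receptor that guides cells to T zones, was 49.9 ± 6.48 against 97.2 ± 34.8 CPM (log2 fold change -0.98, adjusted p = 0.0132), and the call was lost without CD8 replicate 2 or CD4 replicate 2 or 3 (adjusted p = 0.0519 to 0.0909). Of 16 tested homing receptors 2 were lower and 1 higher (18.8% called), and of 15 inhibitory receptors 3 were lower and 2 higher (33.3%). Lower inhibitory receptors were 5 with the covariate or without CD4 replicate 1. They were 1 without CD8 replicate 1, 2 or 3 or CD4 replicate 2 or 3, and 0 with a replicate block. The higher ones were 4 without CD4 replicate 2. Pdcd1 (log2 fold change 0.47, adjusted p = 0.411), Lag3 (log2 fold change 0.69, adjusted p = 0.39) and Ctla4 (log2 fold change 0.25, adjusted p = 0.659) were among those not called. Another 4 listed inhibitory receptors were below the filter. Of these, Havcr2 had 14, 11 and 6 counts in CD8 and 0 in every CD4 library. Cd244a had 6, 6 and 3 against 1, 3 and 1 counts, Tigit 1, 2 and 1 against 0, 1 and 2, and Klrg1 0 throughout.

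Of 16 tested Treg genes 2 were higher and 2 lower (25% called), with a median of -0.17. Izumo1r, which encodes the folate receptor-like FR4, had 30.9, 28.5 and 24.8 CPM in CD8 and 58.9, 113 and 88.4 CPM in CD4 libraries (log2 fold change -1.65, SE 0.20, adjusted p = 3.36e-05), and Gpr83 beside it on chromosome 9 was 0.856 ± 0.596 against 5.23 ± 0.778 CPM (log2 fold change -2.55, adjusted p = 0.0124). The groups did not overlap for Izumo1r, and the call of Gpr83 was lost without CD8 replicate 2 (adjusted p = 0.081). The higher members were Ikzf2 and Socs2. Foxp3 itself had 1 count in the CD8 and 1 in the CD4 libraries. Ebi3, whose counts in the libraries labelled KO are given above, was in WT 29.6 ± 0.952 against 47.5 ± 12.5 CPM (log2 fold change -0.66, SE 0.19, adjusted p = 0.0552); it passed without CD4 replicate 2 (adjusted p = 0.0406). Of 11 tested Th2 genes 3 were higher and 1 lower, and of 5 tested Th17 genes 1 was higher; Il17a and Il17f did not pass the filter.

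Of 26 tested interferon-stimulated genes 4 were lower in CD8 and 0 higher, with a median of -0.46. Leaving out CD8 replicate 1 gave 2 lower genes and 1 higher, and leaving out CD8 replicate 2 gave 2 lower. Leaving out CD8 replicate 3 gave 9 lower (median -0.73), and with the hemoglobin covariate 3 were lower (median -0.21). Among 9 listed genes below the filter, Mx1 had 10, 15 and 14 counts in CD8 and 0, 2 and 3 in CD4 libraries. Of the same genes, Oasl2 had 3, 1 and 4 counts in CD8 and 5, 4 and 7 in CD4 libraries. Iigp1, an interferon-inducible GTPase, had 3.6, 2.59 and 5.05 CPM in CD8 and 15.7, 21.6 and 28.9 CPM in CD4 libraries (log2 fold change -2.55, SE 0.36, adjusted p = 0.000182), with no overlap. Ifi27l2a (log2 fold change -0.84, adjusted p = 0.0097) and Irgm1 (log2 fold change -0.78, adjusted p = 0.0326) were also lower, and the calls of Ifi27l2a and Irgm1 were lost without CD8 replicate 1 or 2 (adjusted p = 0.056 to 0.0636) and without CD8 replicate 1 or 2 or CD4 replicate 1 or 3 (adjusted p = 0.0725 to 0.199). Outside the list, Ifitm3 (6.99 ± 1.99 against 20.3 ± 6.42 CPM; log2 fold change -1.56, adjusted p = 0.00505), an antiviral membrane protein, was lower; it was picked after its value was seen. Of 20 MHC class I presentation genes 1 was lower (5%, against 3.44% of all tested genes called). This was H2-T23, which encodes Qa-1 (1.19 ± 1.16 against 7.08 ± 5.61 CPM, log2 fold change -2.57, adjusted p = 0.0353). Its call was lost without CD8 replicate 1 or 2 or CD4 replicate 2 or 3 (adjusted p = 0.0552 to 0.215). B cells also transcribe interferon-stimulated, MHC and homing genes. The B cell list summed to 6671 to 11108 CPM in the CD8 and 8969 to 15778 CPM in the CD4 libraries, and its part in these results was not tested.

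Lists of division and metabolism are read against the 3.44% of all tested genes that were called. Of 30 S phase genes 2 were higher in CD8 (6.67%), of 30 G2 and mitosis genes 0, and of 28 oxidative phosphorylation genes 0, with medians of 0.25, 0.10 and 0.00. Rfc3, a clamp loader subunit, was 116 ± 9.93 against 71.9 ± 12.7 CPM (log2 fold change 0.68, adjusted p = 0.00584), and Mki67, the proliferation marker, 282 ± 40.3 against 264 ± 41.1 CPM (log2 fold change 0.10, adjusted p = 0.739), not called. Of 28 glycolysis and hypoxia genes 2 were higher (7.14%), with a median of 0.23. Bnip3, a mitochondrial protein induced by hypoxia, was 59.3 ± 8.2 against 23.5 ± 6.84 CPM (log2 fold change 1.31, SE 0.22, adjusted p = 0.00096), while Slc2a1 (log2 fold change 0.27, adjusted p = 0.374) and Ldha (log2 fold change 0.22, adjusted p = 0.312) were not called. Of 28 sterol and fatty acid synthesis genes 1 was higher (3.57%). Without CD8 replicate 3 the glycolysis and sterol lists had 5 higher genes each. Apoptosis calls fell to 0 without CD8 replicate 2 or CD4 replicate 3, and to 1 without CD8 replicate 1. With all libraries, 3 of 23 tested apoptosis genes were higher and 1 was lower. Bcl2, which blocks apoptosis, was among the higher ones at 522 ± 31.9 against 386 ± 56.6 CPM (log2 fold change 0.44, adjusted p = 0.023), and its call was lost without CD8 replicate 1 or 2 or CD4 replicate 2 or 3 (adjusted p = 0.0788 to 0.139).

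Of 26 genes of the T cell receptor and its signalling 1 was higher and 2 lower, with a median of 0.02. That is 11.5% called, against 3.44% of all tested genes. The lower ones were 4 with the hemoglobin covariate, and the higher ones 4 without CD8 replicate 3. Themis, a regulator of receptor signalling in thymocytes, was 88 ± 17 against 39.4 ± 5.73 CPM (log2 fold change 1.14, adjusted p = 0.00304). Lck, the kinase bound to the coreceptors, was not called (332 ± 40.9 against 248 ± 39.6 CPM; log2 fold change 0.42, adjusted p = 0.0838). It passed as higher without CD8 replicate 3 or CD4 replicate 2 (adjusted p = 0.02175 and 0.0406). Thy1, the surface marker of mouse T cells, was higher in CD8 at 603 ± 121 against 309 ± 27.9 CPM (log2 fold change 0.96, adjusted p = 0.000591), and Trat1, a receptor-associated adaptor, was lower at 26.9 ± 7.9 against 95.5 ± 39.5 CPM (log2 fold change -1.85, adjusted p = 0.0199). The call of Trat1 was lost without CD8 replicate 2 or 3 or CD4 replicate 2 or 3 (adjusted p = 0.0611 to 0.0968). Not all of these genes are on the list. Its count of 1 higher gene means that Themis and Thy1 are not both members. Trat1 kept its call without CD8 replicate 1, where 0 members were lower, so it is not a member. Of 18 immediate early and stress genes 2 were higher (11.1%), with a median of -0.11. Ier3, which modulates NF-kappaB and survival, had 116, 105 and 83.9 CPM in CD8 and 18.6, 18.1 and 19.1 CPM in CD4 libraries (log2 fold change 2.45, SE 0.22, adjusted p = 1.07e-06), and the groups were apart, whereas Fos was not called (log2 fold change -0.60, adjusted p = 0.351).

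The same contrast was fitted to the libraries labelled KO, which share no sample with the WT contrast but enter the same estimate of spread. There 117 genes were higher in CD8 (1.04% of genes tested) and 244 lower (2.16%), 3.20% in either direction. Both labelled genotypes called 88 genes as higher, which is 34.6% of the WT and 75.2% of the KO list, and 78 as lower, which is 58.2% and 32.0%. No gene was called in opposite directions. Of the WT calls, 232 of 254 higher (91.3%) and 120 of 134 lower genes (89.6%) had the same sign in the libraries labelled KO. The share of the same sign over all tested genes was not computed. By size, 72 of 133 higher and 50 of 62 lower genes over 2-fold were called in KO, against 16 of 121 and 28 of 72 genes up to 2-fold. No test of that difference was run.

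In the libraries labelled KO the log2 fold change was 5.14 for Prf1, 4.73 for Gzma, 2.85 for Gzmb, 5.18 for Ifng and 3.65 for Klrd1. Among CD4-high genes Tbc1d4 was at -5.07 and Dclk1 at -4.29. Other genes had values nearer 0: Il13 had 0.18 in KO against 0.94 in WT, Il12rb2 0.69 against 1.30, Tnfrsf9 0.79 against 1.54, Thy1 0.33 against 0.96 and Bnip3 0.38 against 1.31. These are not shown to differ between the labelled genotypes: the difference of the effect, KO minus WT, passed for 0 of 11276 genes in edgeR (0%; lowest adjusted p = 0.2), with 1828 genes at an unadjusted p under 0.05, and for 5 genes in DESeq2 (Gm14173, Gm22758, Plac8, Smarcc1 and Gm5045, named because the count is small). Gm14173 and Gm22758 had identical values in the WT contrast (log2 fold change -0.7145, SE 0.2228 in DESeq2). The 5 calls may therefore not all be separate. B cell genes were in the other order in the libraries labelled KO, with overlapping list sums of 9990.3 to 13481 CPM in CD8 and 7936 to 10647 CPM in CD4 libraries, where WT had 6671 to 11108 and 8969 to 15778 CPM. Their part in the different share of higher and lower calls (65.5% higher in WT, 32.4% in KO) was not tested.

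**Figure D5:**
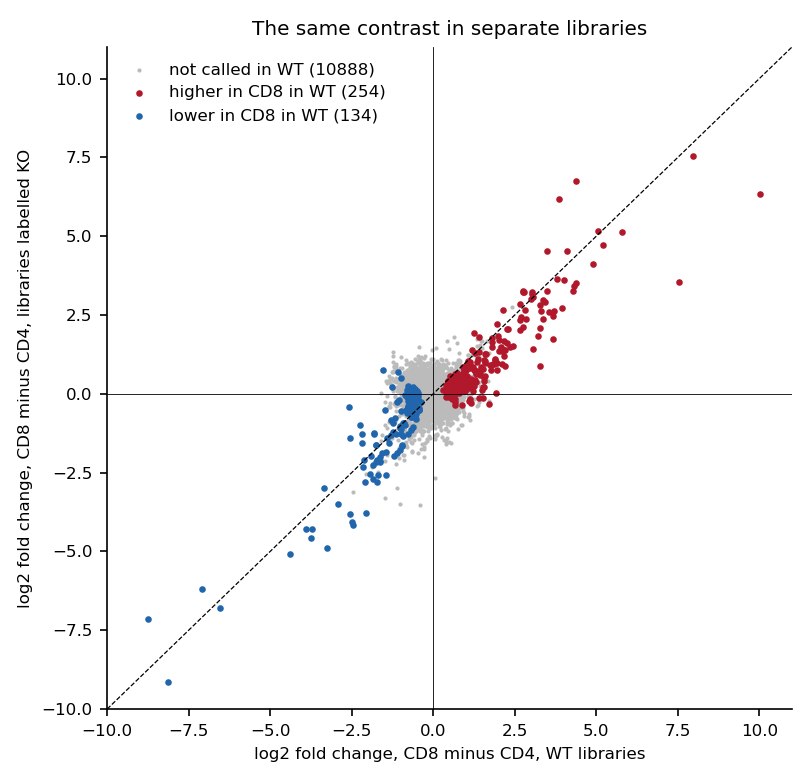
Log2 fold change, CD8 minus CD4, in the libraries labelled KO (vertical axis) against the WT libraries (horizontal axis), 1 point per tested gene, with the line of equal values dashed. Red points were higher in CD8 in WT (254) and blue points lower (134); 232 red points lie above 0 and 120 blue points below 0 on the KO axis.

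Some called genes were neighbours of the same direction. Within 100 kb of one another, 51 of the 254 higher genes formed 23 clusters and 24 of the 134 lower genes 12 clusters. Among them were Cd8b1 and Cd8a and the 3 killer lectin genes on chromosome 6, Ccl3 and Ccl4 on chromosome 11, Gzmc and Gzmb on chromosome 14, Serpinb6b and Serpinb9 on chromosome 13, and Tnfrsf1b and Tnfrsf8 on chromosome 4. On the lower side were Igfbp4 and Ccr7 on chromosome 11 and Gpr83 and Izumo1r on chromosome 9. Some pairs are a gene and an overlapping or adjacent transcript, such as Cd40lg with Gm14718, whose 3' tags the counting could split. The share of neighbours among all genes was not computed.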

How the data were processed

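Counts of the 12 CD8 and CD4 libraries (labelled WT and KO, 3 each) were analysed. The authors deposited a table of raw counts for 55487 Ensembl genes. Per the labels' protocols, 500 ng of RNA went into each 3' library, with unique molecular identifiers. The submitters' processing notes name the genome GRCm38 (mm10), the aligner STAR 2.5.3a, the trimmer cutadapt 2.10, UMI-tools 1.0.0 for molecular identifiers, the Subread 2.0.0 package with featureCounts, and FastQC. Settings such as strand, annotation and multiple alignments were not given in the sources used here, so near-identical or overlapping genes are uncertain.

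Gene names and positions came from a GRCm38 annotation (55227 genes matched) and promoters from RefSeq tables of GRCm38.p6. The analysis used edgeR 4.0.16 under R 4.3.3. After filterByExpr (minimum count 10) and TMM scaling, 4 group means were fitted with a robust glmQLFit (8 residual degrees of freedom), and glmQLFTest p-values over 11276 genes were Benjamini-Hochberg adjusted (threshold 0.05). Treg libraries were left out because an earlier analysis found Treg replicates that differed by no more than sampling noise. CPM are per TMM-scaled library, and errors are SD over 3 libraries. An exact permutation test of 3 against 3 cannot go below 0.1, so it was not used. For genes with 3 or fewer counts in a group, ratios of summed counts with exact 95% counting intervals, or bounds from a floor of 3 counts over the group, replace fitted folds. The fit was tested on simulated data.

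The comparison and the 34 gene lists were chosen with earlier results of these data known. Named genes are Cd8a, Cd8b1, Cd4, Zbtb7b, Runx3, Foxp3 and Ebi3, the 15 largest rises and falls (mean log2 CPM of 2 or more, groups apart, no predicted genes), the 5 of lowest p in each direction, up to 8 called and 3 uncalled members of each list, and all counted members of families described; some genes that the rule picks are not reported here. Alternatives were the libraries in the fit, a replicate block, scaling, DESeq2 1.42.0, limma-voom (limma 3.58.1), filters, a fold threshold, a hemoglobin covariate and leaving out each WT library.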

Additional observations from a re-analysis of the deposited data

How the results depend on the processing

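Higher and lower calls (254 and 134) were 443 and 239 with all 18 libraries in the fit, 159 and 67 with only the 6 WT libraries, 525 and 319 with no filter on low counts, and 77 and 27 where a fold over 1.5 was required. RLE scaling, total counts, DESeq2, limma-voom and a stricter filter kept both counts within 1.5 times. The hemoglobin covariate gave 159 and 188. Leaving out 1 library gave 130 to 443 higher and 53 to 294 lower genes. Both extremes were CD8 libraries, with the fewest calls without replicate 2 and the most without replicate 3; counts moved by over 1.5 times also without CD8 replicate 1 (146 and 77) and without CD4 replicate 3 (151 and 62).

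With the genotype and replicate number as a replicate block, 148 genes were higher and 65 lower. Whether the numbers pair the samples is not known from the labels. Same-numbered WT libraries correlated at -0.38, 0.07 and -0.07 in their deviations from the group means. Differently numbered ones correlated at -0.38 to 0.34. Deviations from a mean of 3 libraries depend on one another, so these values cannot decide the question. The difference between genotypes had 0 calls with all 18 libraries and with the block, and 5 in DESeq2, where Gm14173 and Gm22758 may not be separate calls.

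Of the 90 named genes that were called, 50 kept their call under each of the 17 alternatives that could test them. The fold threshold ended 39 of these calls, the block 17 and the hemoglobin covariate 11. Of the 28 named genes not called, 3 passed with the covariate, all lower in CD8: Tcf7 (adjusted p = 6.13e-05), Cd44 (adjusted p = 0.0261) and Zbtb7b (adjusted p = 0.0359). With no filter on low counts 8 of them passed. Il2ra, Lck, Lta and Runx2 were then higher, and Ebi3, Tcf7, Gm14173 and Gm22758 lower. With all 18 libraries 4 passed, namely Lck, Runx2 and Smarcc1 as higher and Ebi3 as lower. With the covariate the log2 fold change changed sign for Tyrobp (0.29), Ctla4 (-0.29), Cish (-0.18), Tbx21 (-0.063) and Mki67 (-0.024), none of them called. Leaving out 1 library also changed the sign of Cish (range -0.043 to 0.32; negative without CD4 replicate 1), Mki67 (-0.0099 to 0.22; negative without CD4 replicate 3) and Fasl (-0.49 to 0.41; positive without CD8 replicate 2 or CD4 replicate 2). The cause of these changes was not tested. Depth limits genes near 3 counts, where a difference was not detectable.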
